A study of Mus musculus with 17 samples.

Results

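The genes described here encode the matrix metalloproteases (MMP), their tissue inhibitors (TIMP), and the ADAM, ADAMTS and ADAMTS-like (ADAMTSL) proteins. They were chosen by name alone, as every gene whose mouse symbol begins with Mmp, Timp, Adam, Adamts or Adamtsl followed by a digit, which gave 84 of the 52545 genes in the table. Of these, 23 were MMP, 33 ADAM, 19 ADAMTS, 5 ADAMTSL and 4 TIMP genes. The 17 RNA-seq libraries were made from liver tissue outside tumours, taken at 32 weeks of age from male mice of the strain C57BL/6J. The 6 CLDN1 mAb libraries came from mice that had been given 100 mg/kg of the liver carcinogen diethylnitrosamine (DEN) 1 time in week 1, were fed the high-fat, choline-deficient diet CDA-HFD, and had 500 µg of a monoclonal antibody to the tight junction protein claudin-1 injected into the peritoneum 1 time per week for 16 weeks. The 6 Vehicle Control libraries came from mice with the same carcinogen and diet and the same schedule of injections, of PBS alone. The 5 Regular diet libraries came from untreated mice, so vehicle and regular diet differ in carcinogen, diet and injections together, and these cannot be told apart.

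MMPs are secreted or membrane-bound zinc proteases that cut collagens, elastin and other matrix proteins, and in the liver they are best known for the turnover of scar tissue. TIMPs bind to the active site of MMPs and of some ADAM and ADAMTS proteases and block it. ADAMs sit in the cell membrane, where those with an intact zinc site release the outer parts of growth factors, cytokine precursors and receptors, while others have lost the site and act in adhesion. ADAMTS proteases are secreted and process procollagens, cut large proteoglycans or cleave von Willebrand factor, and ADAMTSL proteins resemble them but lack a protease domain.

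Values were counts normalized by the authors, called normalized counts below, and a value of exactly 0 may be an estimate that failed, since even albumin (Alb) stood at 0 throughout. Depth, estimated as the deposited total divided by the most common low value, was 27.7 to 55.6 M fragments in antibody, 36.01 to 59.5 M in vehicle and 30.4 to 55.0 M in regular diet libraries. The deposited totals were 35.4 to 42.8 M in antibody, 29.7 to 42.1 M in vehicle and 48.2 to 74.6 M in regular diet libraries, highest in regular diet replicate 1. Genes were tested where at least 5 libraries reached 10 normalized counts, which 56 of the 84 genes did (18 MMP, 15 ADAM, 14 ADAMTS, 5 ADAMTSL and 4 TIMP). Of these 56, 9 were under 10 in every regular diet library (Mmp7, Mmp8, Mmp10, Mmp24, Mmp25, Timp4, Adam28, Adamts3 and Adamts16) and so passed through the other libraries, and 0 were under 10 in every antibody and vehicle library. Of the 28 genes not tested, 9 stayed under 0.1 in all libraries, and the highest value of any was 18.4. They were mostly ADAM genes (18), among them Adam2, Adam3, Adam5 and Adam18, which are known from the testis. Changes are given on the log2(value + 1) scale, which understates those of low genes, with p-values from limma adjusted over the 18624 genes that were tested, at a threshold of 0.05. The labels number the libraries within a group and do not say outright that each came from a different mouse, so p-values measure the spread between these libraries.

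Most of the metalloprotease and inhibitor genes that could be tested were at higher levels in livers of vehicle mice than in those on regular diet. Of the 56, 46 rose, 3 fell (Adam11, Mmp19 and Adam9) and 7 did not pass. These counts and the median below include the 9 genes under 10 in every regular diet library. Such genes could hardly fall, and all of them but Adam28 were among the 46. Over all genes tested, 50.5% passed, 29.8% higher and 20.7% lower. The median log2 change was 2.13 for the 56 genes, against 0.04 for all genes tested. Of the 56, 45 passed and changed at least 2-fold, against 33.7% of all genes tested, and 30 at least 4-fold, against 16.5%. In 32 of them every vehicle library was above every regular diet library, which held for 19.1% of all genes tested, and in 1 (Adam11) every vehicle library was below, which held for 10.5%. The deposited totals differed between the groups, and scaling every library to the same total moved the median of all genes tested to 0.65 and gave 49 of the 56 higher and 1 lower. Quantile normalization moved it to -0.13 and gave 40 higher and 3 lower, with Adamts13 in place of Adam9 among the lower. Over all genes tested, the 5547 higher and 3853 lower became 9369 and 1266 with the same total, and 4447 and 5223 with quantile normalization.

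Markers of other liver cells moved in the same comparison. All 8 cholangiocyte markers, 8 of 10 stellate cell and fibroblast markers, 7 of 10 macrophage markers, 5 of 9 tested neutrophil markers and 4 of 5 T cell markers were higher in vehicle, and 8 of 9 hepatocyte markers were lower. Summed macrophage markers reached 60510 to 244900 normalized counts in vehicle and 9713 to 22920 in regular diet libraries. Summed stellate cell and fibroblast markers reached 37900 to 150400 in vehicle and 12440 to 19500 in regular diet, and summed cholangiocyte markers 44810 to 100300 in vehicle and 2519 to 4058 in regular diet. Summed hepatocyte markers reached 333900 to 1301000 in vehicle and 1729000 to 3506000 in regular diet. Neutrophil markers summed to 1116 to 4146 in vehicle and 161.9 to 928.6 in regular diet, and T cell markers to 460.6 to 1190 in vehicle and 151.4 to 538 in regular diet. Of 7 endothelial markers 2 were lower, of 5 B cell markers 0 passed, and mast cell, male germ cell and pancreas acinar markers had 2, 1 and 1 tested genes, of which 1 mast cell marker was higher and the acinar marker lower. Endothelial markers summed to 2469 to 13040 in vehicle and 9582 to 12840 in regular diet, B cell markers to 1241 to 13520 and 805.1 to 2189, mast cell markers to 129.8 to 453.1 and 115.5 to 271.3, male germ cell markers to 2.371 to 45.05 and 14.74 to 27.13 (with Tnp1 at 0 in all libraries), and acinar markers to 629 to 820.2 and 813.7 to 5137. In bulk liver, more cells of a type and more RNA per cell cannot be told apart, and the part of these cell types in the changes of the protease genes was not tested.

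Mmp12 encodes the macrophage elastase (chromosome 9, 7344381 to 7369499, mouse build mm10). It stood at 15023 to 30755 with a median of 21076 normalized counts in the 6 antibody libraries, at 16604 to 62459 with a median of 36274 in the 6 vehicle libraries, and at 73.7, 90.6, 51.6, 57.8 and 133 in the 5 regular diet libraries. No regular diet library came near the others, and antibody and vehicle libraries overlapped. The log2 change of vehicle over regular diet was 8.73 ± 0.35 (SE; adjusted p = 2.31e-11). Mmp7, the matrilysin of epithelial cells (chromosome 9, 7692090 to 7699585), was at 575 to 3916 with a median of 1115 in antibody, 652 to 6227 with a median of 2385 in vehicle, and 9.83, 6.56, 8.75, 5.505 and 6.11 in regular diet libraries, with a log2 change of 8.14 ± 0.51 (SE; adjusted p = 1.83e-09) for vehicle over regular diet. Its lowest vehicle library was still far above the highest regular diet library.

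The plot of values by library shows these genes beside the other leading ones.

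**Figure D1:**
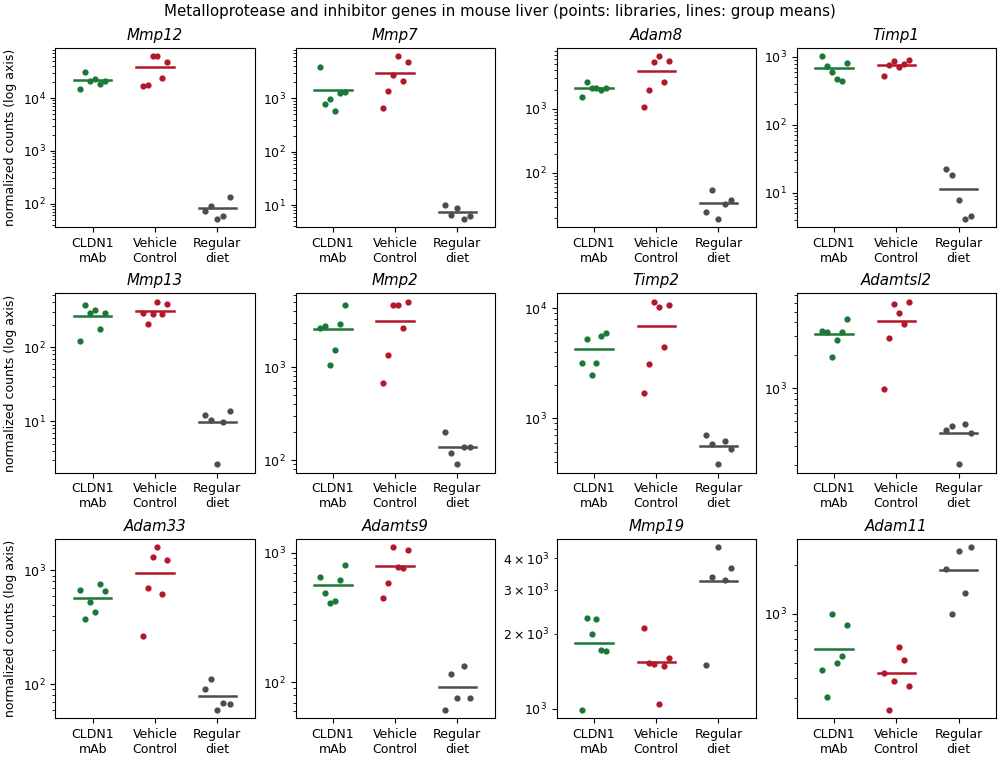
Normalized counts (log axis) of 12 genes in each library, CLDN1 mAb (n = 6), Vehicle Control (n = 6) and Regular diet (n = 5) from left to right, with lines at the group means. In Mmp12, Mmp7, Adam8, Timp1, Mmp13, Mmp2, Timp2, Adamtsl2, Adam33 and Adamts9 all regular diet libraries lie below all others, and in Mmp19 and Adam11 most of them lie above.

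Mmp12 and Mmp7 belong to a cluster of 10 Mmp genes on chromosome 9, between 7272514 and 7699585. Of the 10, 7 could be tested, and all 7 rose in vehicle against regular diet. Mmp7, Mmp8 and Mmp10 entered the test only through the vehicle and antibody libraries, so their direction was largely set by the filter. Mmp13, the interstitial collagenase of mouse, was at 121 to 373 with a median of 289 in antibody, 205 to 410.1 with a median of 284 in vehicle, and 12.3, 10.5, 2.63, 9.63 and 13.7 in regular diet libraries (log2 change of vehicle over regular diet 4.94 ± 0.35 SE, adjusted p = 7.62e-09). Mmp8, the neutrophil collagenase, was at 21.5 to 46.97 with a median of 32.5, 23.3 to 105 with a median of 60.9 and 7.37, 5.25, 0, 5.505 and 4.58 in the same order (3.66 ± 0.49 SE, adjusted p = 7.31e-06). Mmp27 averaged 114 ± 31.98 in antibody, 206 ± 118 in vehicle and 47.8 ± 19.03 in regular diet libraries (SD; n = 6, 6 and 5), and its log2 change over regular diet was 1.98 in vehicle. The stromelysin Mmp3 was low, at 9.26 to 52.1, 8.95 to 119 and 2.62 to 14.7 in antibody, vehicle and regular diet, and the stromelysin Mmp10 was listed at 0 in all regular diet libraries, against 1.24 to 15.3 in antibody and 3.58 to 22.2 in vehicle. Mmp1a and Mmp1b, the collagenase genes next to them, were listed at 0 in all 17 libraries, and Mmp20, the enamel protease, averaged 1.22, 1.503 and 0. Mmp12 and Mmp1b share 157 exon bases on opposite strands.

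The bases before the starts of the cluster genes are shown because they share a short motif. TGAGTCA, or TGACTCA on the other strand, is the letter pattern bound by the AP-1 factors (Fos and Jun), and an exact copy stood within the 250 bases before the start of 7 of the 10 cluster genes (70%). The same held for 1395 of 27025 genes of the RefSeq promoter table (5.16%; build GRCm38.p6), in which 53 of the 84 genes were found. Outside the cluster, 2 of 43 of these genes had the motif (4.65%), and of those higher in vehicle 1 of 27 (3.7%). Counted by start, 7 of 12 cluster windows held a copy (58.3%), against 4.46% of all windows. Both strands were searched, no other motif was searched, and a match is a stretch of letters, not a shown binding site. The cluster genes are neighbours of 1 family and may share letters for that reason, so their copies are not independent and these shares are no test. The last 120 bases before the start are printed 5′ to 3′ on the strand of the gene, with the motif in capitals.
Mmp7 at chr9:7691970-7692089, plus strand: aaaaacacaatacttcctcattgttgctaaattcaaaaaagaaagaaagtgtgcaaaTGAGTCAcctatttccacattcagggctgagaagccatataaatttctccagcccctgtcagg
Mmp10 at chr9:7502222-7502341, plus strand: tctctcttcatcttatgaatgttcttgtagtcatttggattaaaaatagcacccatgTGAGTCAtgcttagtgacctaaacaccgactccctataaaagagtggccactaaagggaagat
Mmp3 at chr9:7445702-7445821, plus strand: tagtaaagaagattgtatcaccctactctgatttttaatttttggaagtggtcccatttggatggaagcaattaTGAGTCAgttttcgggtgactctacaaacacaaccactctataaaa
Mmp13 at chr9:7272394-7272513, plus strand: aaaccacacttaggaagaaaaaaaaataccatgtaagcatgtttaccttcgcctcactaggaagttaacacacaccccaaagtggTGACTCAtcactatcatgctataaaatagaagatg
Mmp12, second of 2 starts, at chr9:7347254-7347373, plus strand: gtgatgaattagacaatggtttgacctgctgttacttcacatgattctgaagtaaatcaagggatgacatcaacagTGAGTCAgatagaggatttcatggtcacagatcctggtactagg
Mmp1a at chr9:7464021-7464140, plus strand: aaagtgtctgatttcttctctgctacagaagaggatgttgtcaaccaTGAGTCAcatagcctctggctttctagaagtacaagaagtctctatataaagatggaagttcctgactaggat
Mmp1b at chr9:7388027-7388146, minus strand: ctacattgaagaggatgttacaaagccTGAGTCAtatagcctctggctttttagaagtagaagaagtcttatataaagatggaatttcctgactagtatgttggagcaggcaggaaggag
Mmp8 at chr9:7558309-7558428, plus strand: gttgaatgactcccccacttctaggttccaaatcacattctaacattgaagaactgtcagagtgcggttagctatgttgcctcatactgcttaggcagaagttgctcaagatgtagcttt
Mmp27 at chr9:7571276-7571395, plus strand: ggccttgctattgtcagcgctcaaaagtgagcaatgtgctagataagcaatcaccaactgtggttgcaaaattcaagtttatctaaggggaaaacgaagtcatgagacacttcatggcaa
The first base of the motif lay 63 bases before the start in Mmp7 and in Mmp10, 46 in Mmp3, 44 at the second start of Mmp12, 73 in Mmp1a, 93 in Mmp1b and 35 in Mmp13, where it is read as TGACTCA. The first start of Mmp12 and the other start of Mmp7 had no copy. Mmp1a and Mmp1b carry the motif and were listed at 0 in all libraries, while Mmp8 and Mmp27 lack it in this window and were higher in vehicle. Mmp20 lacks it as well and was not tested for change. Of the 7 tested cluster genes, 5 had it.

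Among the MMPs outside the cluster, both gelatinases were higher in vehicle. Mmp2, which cuts denatured collagen and is made mainly by fibroblasts (chromosome 8, 92827291 to 92853420), was at 1058 to 4594 with a median of 2700.3 in antibody, 679 to 5046 with a median of 3601 in vehicle, and 201, 118, 90.1, 138 and 139 in regular diet libraries. Its log2 change of vehicle over regular diet was 4.24 ± 0.47 (SE; adjusted p = 1.05e-06), and all vehicle libraries lay above all regular diet libraries. Mmp9, the gelatinase of neutrophils and macrophages, was low, at 52.6 ± 7.87, 83.997 ± 52.3 and 25.6 ± 5.94 in antibody, vehicle and regular diet (SD; n = 6, 6 and 5). It passed in vehicle (log2 change 1.41), where the groups overlapped, but not after quantile normalization (adjusted p = 0.113).

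Of the 5 tested membrane-type MMPs, 4 rose in vehicle against regular diet. Mmp14, which activates the Mmp2 precursor at the cell surface, averaged 3451 ± 638 in antibody, 4085 ± 1375 in vehicle and 1679 ± 129.6 in regular diet, with no overlap between vehicle and regular diet (log2 change 1.20 ± 0.22 SE, adjusted p = 0.000213). Mmp15 averaged 4374 ± 759, 3176 ± 1028 and 1987 ± 175 in the same order (log2 change of vehicle over regular diet 0.62 ± 0.19 SE, adjusted p = 0.0123). Mmp25 was low, at 3.84 to 27.3 in antibody, 2.69 to 35.6 in vehicle and 0 to 1.75 in regular diet libraries. Mmp24 was at 25.01 to 56.1, 24.6 to 49.3 and 0 to 1.31, but shares 637 exon bases with BC029722 on the other strand, which averaged 1465 in vehicle and 1184 in regular diet, so its reads cannot be told apart without strand. Both Mmp24 and Mmp25 entered the test only through the vehicle and antibody libraries, so their direction was largely set by the filter. Mmp17 did not pass (log2 change 0.50), and Mmp16 was not tested.

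Of the remaining MMPs, Mmp23 was at 318 to 711 with a median of 462 in antibody, 182 to 971 with a median of 588 in vehicle, and 157, 41.995, 32.4, 61.9 and 58.1 in regular diet libraries, and rose in vehicle by 3.07 ± 0.42 (SE; adjusted p = 1.11e-05) on the log2 scale. Its regular diet replicate 1 stood above the other 4. The stromelysin Mmp11 (209 ± 89.2, 286 ± 153 and 80.9 ± 49.6 in antibody, vehicle and regular diet) rose by 1.72 in vehicle, and shares 155 exon bases with Chchd10 on the other strand. With the replicate number as a block Mmp11 did not pass (adjusted p = 0.0767). Mmp28 did not pass, and Mmp21 was not tested.

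Mmp19 moved the other way. It encodes a protease that cuts basement membrane proteins, and stood at 991 to 2301 with a median of 1856 in antibody and 1048 to 2098 with a median of 1515 in vehicle libraries, against 1494, 3379, 4433, 3283 and 3656 in regular diet libraries. Regular diet replicate 1 lay within the range of the other groups, and the other 4 regular diet libraries lay above all of them. The log2 change of vehicle over regular diet was -1.02 ± 0.26 (SE; adjusted p = 0.00345). The call was lost with the same total per library (log2 change -0.39, adjusted p = 0.298), and Mmp19 shares 789 exon bases with Tmem198b on the other strand.

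All 4 TIMP genes rose in vehicle against regular diet. Timp1, the inhibitor that injured liver is known to make in quantity (chromosome X, 20870166 to 20874735), was at 440.01 to 1035 with a median of 669 in antibody, 531 to 904 with a median of 786 in vehicle, and 22.1, 18.4, 7.88, 4.13 and 4.58 in regular diet libraries, a log2 change of 6.21 ± 0.36 (SE; adjusted p = 8.79e-10) for vehicle. Its spread within vehicle was narrow beside that of Mmp12 or Mmp7. Timp2, which also takes part in the activation of the Mmp2 precursor, was at 2454 to 5944 with a median of 4209, 1687 to 11456 with a median of 7334 and 709.96, 589, 382, 623 and 529 (3.32 ± 0.42 SE, adjusted p = 4.7e-06). Timp3, the matrix-bound inhibitor that also blocks ADAM and ADAMTS proteases, averaged 4269.9 ± 2039, 7297 ± 5142 and 1473 ± 692 in antibody, vehicle and regular diet (log2 change of vehicle over regular diet 2.13 ± 0.49 SE, adjusted p = 0.00155), and shares 1733 exon bases with Syn3, which averaged 25.7 in vehicle and 52.9 in regular diet. Timp4 was low, at 1.64 to 16.8, 2.69 to 16.01 and 0 to 5.25. It passed in vehicle (log2 change 1.73 ± 0.55 SE, adjusted p = 0.0144) but not after quantile normalization (adjusted p = 0.594). Timp4 entered the test only through the vehicle and antibody libraries, so its direction was largely set by the filter. It also shares 90 exon bases with Syn2 on the other strand, which averaged 32.1 in vehicle and 4.07 in regular diet. Reads from the shared bases cannot be told apart without strand.

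The ADAM genes were divided by whether the longest open reading frame of their GENCODE transcripts holds the zinc-binding histidine motif, which 20 of 33 did. Of the 10 tested genes with the motif, 8 were higher in vehicle, Adam9 was lower and Adam28 did not pass. Adam8, which is carried by myeloid cells and sheds adhesion molecules (chromosome 7, 139978932 to 139992562), was at 1544 to 2591 with a median of 2108 in antibody, 1087 to 6668 with a median of 3957 in vehicle, and 24.6, 55.1, 19.3, 33.03 and 38.2 in regular diet libraries. Its log2 change of vehicle over regular diet was 6.61 ± 0.39 (SE; adjusted p = 9.69e-10), and the vehicle libraries spread far more widely than the antibody libraries. Adam33, a gene of mesenchymal cells, was at 372 to 763 with a median of 592, 265 to 1598 with a median of 959.8 and 90.9, 110.2, 59.5, 68.8 and 67.2 (3.38 ± 0.36 SE, adjusted p = 6.91e-07). Adam19 averaged 254 ± 97.8 in antibody, 411 ± 232 in vehicle and 83.6 ± 32.8 in regular diet (log2 change of vehicle over regular diet 2.20), and Adam15 829 ± 203, 1035 ± 522 and 192 ± 55.4 (2.20).

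The 2 general sheddases were higher in vehicle by less. Adam10, which cuts Notch and cadherins, averaged 2680.03 ± 333, 3147 ± 564 and 1735 ± 503 in antibody, vehicle and regular diet (log2 change of vehicle over regular diet 0.90 ± 0.20 SE, adjusted p = 0.00113). Adam17, which releases tumour necrosis factor and ligands of the epidermal growth factor receptor, averaged 1626 ± 106, 1916 ± 337 and 1455 ± 91.8 (0.38 ± 0.12 SE, adjusted p = 0.0131). With the replicate number as a block Adam17 did not pass (adjusted p = 0.216). It overlaps Iah1 by 311 exon bases on the other strand. Adam9 was at 1999 to 3461 in antibody, 2462 to 3218 in vehicle, and 2319, 5495, 5042, 5126 and 5422 in regular diet libraries. Its log2 change of -0.66 ± 0.21 (SE; adjusted p = 0.0125) was lost once all libraries had the same total (adjusted p = 0.924), and regular diet replicate 1 stood below the other 4. Adam1a passed as higher, but it shares 4779 exon bases with Gm42878 and 1805 with Mapkapk5, and regular diet replicate 1 held a failed estimate near 0. Its log2 change of vehicle over regular diet was 2.36 with that library and 1.35 without it. Adam12, which is known from activated stellate cells, averaged 70.8 ± 33.4 in antibody, 90.8 ± 43.5 in vehicle and 35.3 ± 15.5 in regular diet, and passed in vehicle (log2 change 1.29 ± 0.41 SE, adjusted p = 0.0141) but not after quantile normalization (adjusted p = 0.23).

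Of the 5 tested ADAM genes without the motif, Adam22 and Adam32 were higher, Adam11 was lower, and Adam4 and Adam23 did not pass. Adam11, known as a synaptic adhesion protein, was at 304 to 1005 with a median of 521 in antibody and 254 to 628 with a median of 405 in vehicle libraries, against 1906, 1003, 2460.1, 1349.98 and 2591 in regular diet libraries (chromosome 11, 102761439 to 102780262). All 6 vehicle libraries lay below all 5 regular diet libraries, with a log2 change of -2.09 ± 0.31 (SE; adjusted p = 2.68e-05). Adam32, known from the testis, was at 30.9 to 157, 49.3 to 96.7 and 5.505 to 19.7 in antibody, vehicle and regular diet libraries (log2 change of vehicle over regular diet 2.61 ± 0.37 SE, adjusted p = 1.54e-05). Adam22, an adhesion protein of nerve cells, averaged 45.9 ± 27.5, 74.2 ± 38.2 and 20.98 ± 4.97 (1.64).

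Among ADAMTS genes, all 3 procollagen N-propeptidases, all 5 tested proteoglycanases and 4 of 5 tested others were higher in vehicle, while Adamts13 and Adamts7 did not pass. Adamts2, which trims the N-terminal propeptide from fibrillar procollagens, averaged 1239.8 ± 436 in antibody, 1552 ± 728 in vehicle and 202 ± 65.5 in regular diet (log2 change of vehicle over regular diet 2.81 ± 0.37 SE, adjusted p = 6.82e-06). Adamts14, of the same activity, averaged 289.8 ± 96.3, 402 ± 157 and 74.03 ± 6.92 (2.31). The third, Adamts3, was near the floor at 1.53 to 19.7, 3.58 to 29.04 and 0 to 9.17, and passed in vehicle but not after quantile normalization (adjusted p = 0.297). Its direction was largely set by the filter, which it passed only through the vehicle and antibody libraries.

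Of the proteoglycanases, which cut versican and aggrecan, Adamts9 was at 406 to 798 with a median of 551 in antibody, 444 to 1101 with a median of 763 in vehicle, and 61.4, 115, 75.3, 135 and 76.4 in regular diet libraries, with no overlap between vehicle and regular diet (3.06 ± 0.26 SE, adjusted p = 5.04e-08). It shares 1381 exon bases with A730049H05Rik on the other strand, which averaged 50.8 in vehicle and 5.22 in regular diet. Adamts5 averaged 867 ± 386, 1101 ± 477 and 132 ± 36.3 in antibody, vehicle and regular diet (log2 change 2.97 ± 0.33 SE, adjusted p = 1.18e-06), and Adamts15 233 ± 92.3, 408 ± 288 and 39.04 ± 17.4 (3.12). Adamts1, the neighbour of Adamts5 on chromosome 16, averaged 739.8 ± 270.1, 1285 ± 393 and 572 ± 201 (1.19). Adamts4 averaged 57.9 ± 34.4, 107 ± 78.1 and 22.2 ± 9.26 (1.89), its groups overlapped, and it did not pass after quantile normalization (adjusted p = 0.0911).

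Of the other ADAMTS genes, Adamts16 was at 39.6 to 171 with a median of 122 in antibody, 49.1 to 229.7 with a median of 144 in vehicle, and 2.46, 5.25, 7.88, 4.13 and 9.17 in regular diet libraries (4.31 ± 0.43 SE, adjusted p = 2.57e-07). Adamts16 entered the test only through the vehicle and antibody libraries, so its direction was largely set by the filter. Adamts10, which binds fibrillin, averaged 1440.3 ± 356, 2155 ± 1058 and 501 ± 46.6 (1.93), and Adamts6 204 ± 57.6, 234 ± 32.4 and 92.5 ± 39.7 (1.45), though Adamts6 not past the threshold after quantile normalization (adjusted p = 0.0569). Adamts12 was low, at 6.92 to 180.4, 14.03 to 169 and 0 to 13.7 (2.97). Adamts13, the von Willebrand factor protease that stellate cells make in normal liver, averaged 163 ± 56.1 in antibody, 208 ± 109.7 in vehicle and 316 ± 82.3 in regular diet, a log2 change of -0.79 for vehicle that did not pass (95% interval -1.64 to 0.06; adjusted p = 0.115). After quantile normalization it passed as lower (-1.35, adjusted p = 0.00255).

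All 5 ADAMTSL genes were higher in vehicle. Adamtsl2, which binds fibrillin and latent TGF-beta binding protein (chromosome 2, 27079379 to 27108981), was at 1929 to 4262 with a median of 3249.8 in antibody, 988 to 6166 with a median of 4323 in vehicle, and 413, 455, 202, 472 and 393 in regular diet libraries (3.24 ± 0.38 SE, adjusted p = 1.72e-06). It lies next to Adamts13 on chromosome 2. Adamtsl1 averaged 204 ± 98.4, 303 ± 193 and 29.8 ± 9.61 in antibody, vehicle and regular diet (3.04), and Adamtsl4 256 ± 45.6, 338 ± 110.04 and 148 ± 22.1 (1.12). Adamtsl3 and Adamtsl5 passed with log2 changes of 2.13 and 1.98, and vehicle and regular diet overlapped in both. With the replicate number as a block Adamtsl5 did not pass (adjusted p = 0.0752).

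Divided by the merged length of all annotated exons of a gene, levels can be set roughly side by side between genes. That length can exceed that of the transcript in use, so the order, shares and ratios below depend on the annotation. In normalized counts per kb, Mmp12 led the 56 genes in antibody (2968 ± 725 per kb) and in vehicle (5307 ± 2973 per kb), followed in vehicle by Mmp7 (2793 ± 2014 per kb) and Timp2 (1777 ± 1106 per kb). In antibody Mmp7 (1370 ± 1155 per kb) and Timp2 (1094 ± 382 per kb) followed, but without antibody replicate 1 Timp2 (1150 ± 399 per kb) stood above Mmp7 (911 ± 294 per kb; SD, n = 5). In regular diet Adam9 (1137 ± 324 per kb) and Mmp19 (920 ± 306 per kb) led. Mmp12 alone made up 14.5 to 28.9% of the summed level per kb of these genes in antibody libraries, 21 to 33.1% in vehicle libraries and 0.142 to 0.357% in regular diet libraries. The summed MMP level per kb was 2.4 to 4.37 times the summed TIMP level in antibody libraries (median 3.36), 2.73 to 3.93 times in vehicle libraries (3.17) and 3.71 to 7.67 times in regular diet libraries (4.82). Without Mmp12 the ratio was 1.5 to 2.75, 1.3 to 2.13 and 3.7 to 7.65 in the same order. These ratios are descriptions of RNA and carry no test.

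The changes were not even across the vehicle libraries. For 34 of the 46 genes that were higher in vehicle, replicates 3, 4 and 6 were the 3 highest of the 6 vehicle libraries, while replicate 1 was the lowest for 28 and replicate 2 for 14. The median coefficient of variation over these 46 genes was 35.1% in antibody, 51% in vehicle and 40% in regular diet libraries. The median log2 value of all genes tested was also highest in vehicle replicates 3, 4 and 6. It was 8.904, 8.946 and 8.942 there, against 8.51, 8.693 and 8.829 in replicates 1, 2 and 5. Library orders and coefficients of variation were not counted over all genes tested, so they cannot be read as particular to the 46. The same 3 vehicle libraries held the highest marker sums of macrophages (244900, 200600 and 239400, against 60510, 96370 and 121100 in replicates 1, 2 and 5) and of stellate cells and fibroblasts (127100, 117000 and 150400, against 37900, 54750 and 87760). Cholangiocyte markers were also highest there (100300, 97850 and 98650, against 44810, 60630 and 76950). This held for neutrophil, endothelial, T cell, B cell and male germ cell markers too, but not for mast cell or acinar markers. These 3 libraries held the lowest sums of hepatocyte markers (448300, 431200 and 333900, against 1049000, 1301000 and 994600). Their deposited totals were the lowest of the 6 (30.78, 31.3 and 29.65 M, against 42.1, 41.15 and 37.32 M). Their estimated depths were the highest (59.5, 50.82 and 54.12 M fragments, against 36.01, 45.96 and 44.65 M). The part of cell types, totals and depth in the spread of the protease genes was not tested. The library codes run from 25 to 42 and leave replicate 3 in a different run of codes from replicates 4 and 6. The 5 regular diet libraries hold codes 31 to 35, apart from all vehicle and antibody libraries. In both comparisons with regular diet, group and run of codes therefore cannot be told apart. The heat map of single libraries shows the pattern.

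**Figure D2:**
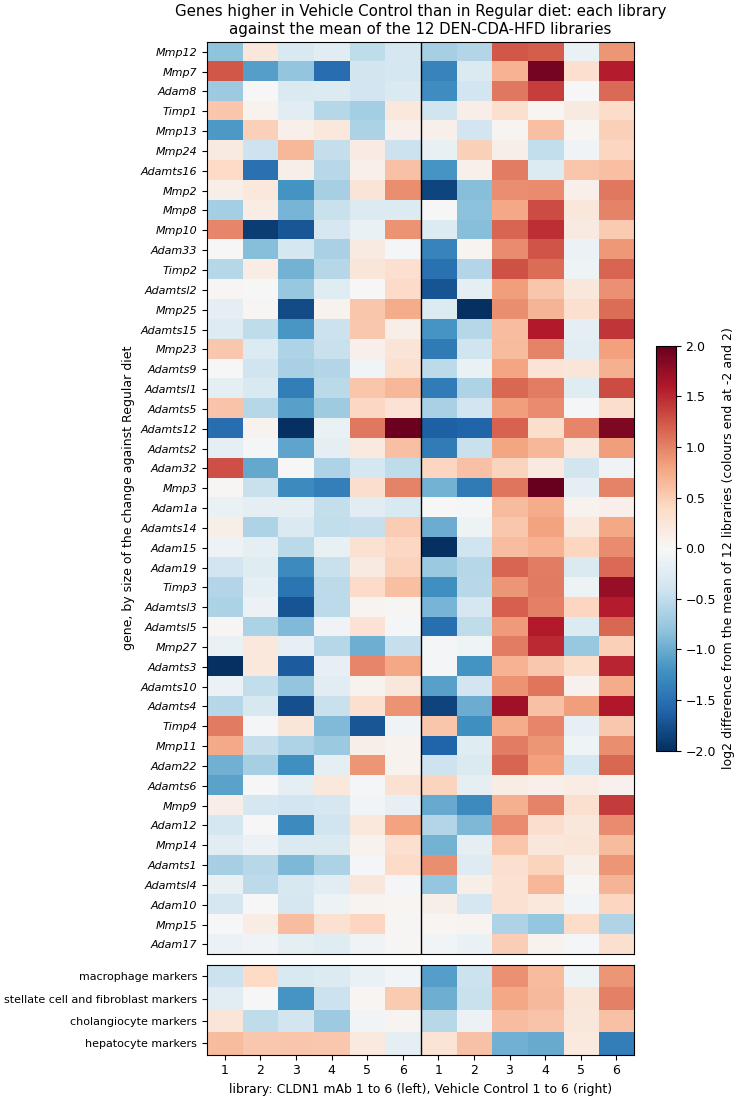
Each row is 1 of the 46 genes higher in Vehicle Control than in Regular diet, each column 1 of the 6 CLDN1 mAb and 6 Vehicle Control libraries, and the colour is the log2 difference from the mean of the 12 libraries. The lower rows show summed markers: Vehicle Control replicates 3, 4 and 6 are red in most gene rows and in the macrophage, stellate cell and cholangiocyte rows, and blue in the hepatocyte row.

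Most of these genes were also higher in antibody than in regular diet livers. Of the 56 genes, 37 were higher, 3 lower and 16 did not pass, against 38.9% of all genes tested that passed, 24.8% higher and 14.1% lower. The 9 genes under 10 in every regular diet library are included here too, and could hardly be lower. The median log2 change was 1.59, against 0.01 for all genes tested. With the same total per library 44 of the 56 were higher and 1 lower (7063 and 831 over all genes tested, against 4613 and 2634 as deposited), and with quantile normalization 28 were higher and 3 lower (3553 and 3725), the lower being Adam11, Adamts13 and Adam4. In 31 genes every antibody library was above every regular diet library, which held for 18.6% of all genes tested, and in 0 was every one below, against 10.4%. Marker lists moved here too, with 8 of 8 cholangiocyte, 8 of 10 stellate cell and fibroblast, 7 of 10 macrophage, 4 of 9 tested neutrophil and 4 of 5 T cell markers higher and 5 of 9 hepatocyte and 3 of 7 endothelial markers lower. Their part was not tested. The 37 higher and the 3 lower genes were all called in the same direction in vehicle. This comparison shares the regular diet libraries with the comparison of vehicle, so the lists are not independent. Mmp12 changed by 8.08 ± 0.35 (SE; adjusted p = 8.96e-11) on the log2 scale in antibody against regular diet, Mmp7 by 7.17 ± 0.51 (SE; adjusted p = 9.99e-09), Timp1 by 6.00 ± 0.36 (SE; adjusted p = 1.92e-09) and Adam8 by 5.96 ± 0.39 (SE; adjusted p = 4.55e-09).

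The 9 genes called in vehicle and not in antibody were Adam12, Adam17, Adam22, Adamts1, Adamts3, Adamts4, Adamtsl3, Mmp9 and Timp4. Their log2 changes over regular diet ran from 0.16 (Adam17) to 1.31 (Adamts3) in antibody and from 0.38 (Adam17) to 2.13 (Adamtsl3) in vehicle, and none of the 9 passed in the direct test of antibody against vehicle. Adam11, Mmp19 and Adam9 were lower in antibody by log2 changes of -1.64, -0.79 and -0.60. With the same total per library Adam11 was the only one still called (log2 change -1.20, adjusted p = 0.0101). The same held without antibody replicate 1, without regular diet replicate 3 and without regular diet replicate 5, which left 1 lower gene in place of 3. Of the 37 higher genes 9 did not pass after quantile normalization (Adam1a, Adamts6, Adamts12, Adamtsl4, Adamtsl5, Mmp3, Mmp10, Mmp11 and Mmp27; adjusted p from 0.0662 to 0.361). The calls of Adam1a and Mmp3 in antibody were lost under 11 and 8 of the alternatives, as was that of Adam9 under 10.

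**Figure D3:**
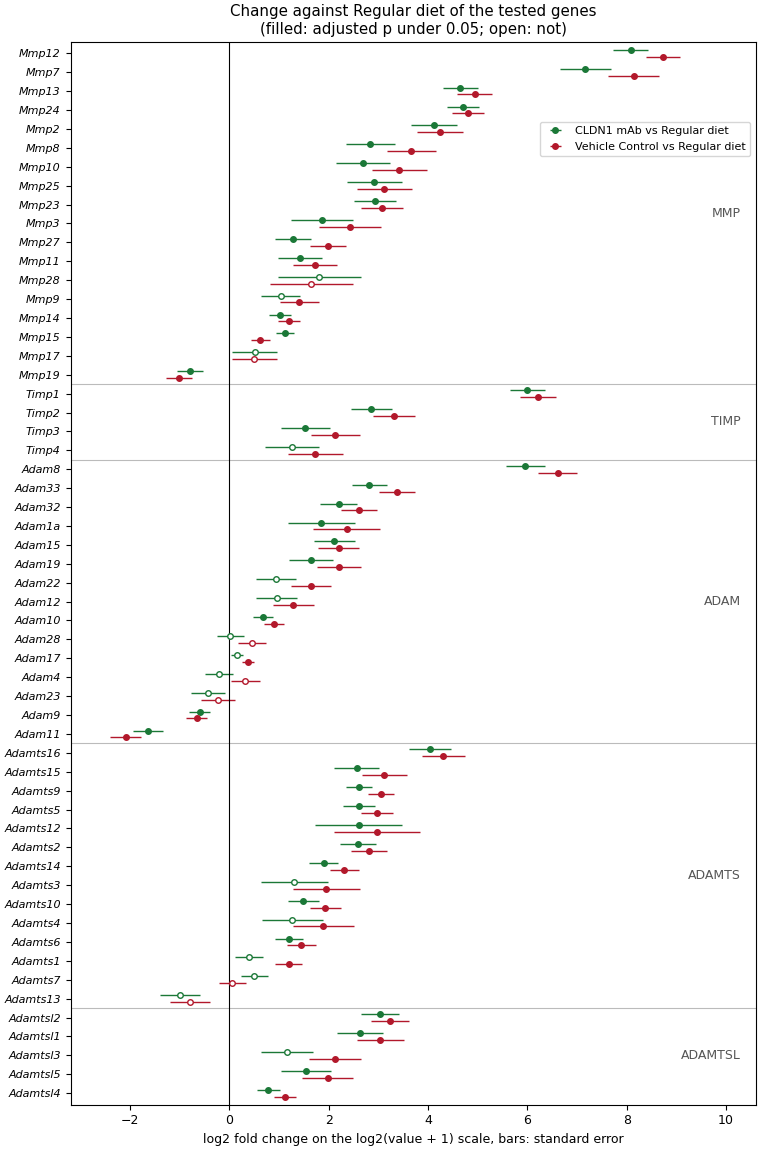
Log2 change against Regular diet of the 56 tested genes by family, for CLDN1 mAb (green, upper) and Vehicle Control (red, lower), with standard errors. Filled points passed and open points did not. Most points lie right of 0, led by Mmp12 (8.08 and 8.73), and Mmp10, listed at 0 in all regular diet libraries, is drawn at a fitted value that depends on the 1 added before the logarithm.

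No single one of these genes passed in antibody against vehicle livers. By limma, 0 of the 56 genes passed, as did 0 (0%) of all 18624 genes tested, and the smallest adjusted p among the 56 was 0.659. At an unadjusted p under 0.05 there were 2 of the 56 (3.57%), against 7.47% of all genes tested. Of the 56 log2 changes 49 were below 0 (87.5%, against 55.7% of all genes tested), with a median of -0.38, against -0.05 for all genes tested. Scaling to the same total gave medians of -0.56 for the 56 genes and -0.23 for all, and quantile normalization -0.34 and -0.01. The genes share the same 12 libraries and do not vary independently, so this count is not a test. Without vehicle replicate 3, 4 or 6 the median of the 56 genes was -0.26, -0.25 or -0.24, and without vehicle replicate 1 it was -0.56. The number of the 56 at an unadjusted p under 0.05 ran from 2 to 17 as single libraries were left out, and was 17 without vehicle replicate 1 and 8 without vehicle replicate 2. The share of all genes tested was not counted in these fits, so these numbers cannot be read as particular to the 56.

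The 2 genes with an unadjusted p under 0.05 were Adamts1 and Mmp15. Adamts1, a proteoglycanase that also binds vascular growth factor, was at 499 to 1214 with a median of 616 in antibody and 775 to 1771 with a median of 1216 in vehicle libraries, and 280.1, 839.9, 571, 628 and 539 in regular diet libraries. The groups overlapped, and all 6 antibody libraries lay below the vehicle mean (log2 change -0.81, 95% interval -1.38 to -0.24, adjusted p = 0.659). Over the alternatives its adjusted p ran from 0.239 to 1. Mmp15, a membrane-type MMP, was at 3599.5 to 5554 with a median of 4268 in antibody and 2120.3 to 4674 with a median of 3066 in vehicle libraries, and 2129.9, 1969, 2040, 1695 and 2102 in regular diet libraries. All 6 antibody libraries lay above the vehicle mean, but the groups overlapped (log2 change 0.51, 95% interval 0.12 to 0.89, adjusted p = 0.659, from 0.210 to 1 over the alternatives). The vehicle libraries with the lowest Mmp15 were replicates 3, 4 and 6, at 2362, 2120.3 and 2399.9. These also had the lowest hepatocyte marker sums and the lowest deposited totals of the vehicle libraries, and the part of either was not tested.

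The other 4 genes with the smallest p in each direction did not pass either. Those lower were Mmp27 (log2 change -0.70), Mmp7 (-0.97), Adamtsl3 (-0.97) and Mmp12 (-0.66), each with an adjusted p of 0.659 by limma. Those higher were Adamts7 (0.44), Adam11 (0.45), Mmp19 (0.23) and Adam9 (0.06). For Mmp12 the 95% interval ran from -1.37 to 0.05, and all 6 antibody libraries lay below the vehicle mean. Mmp7 in antibody replicate 1, at 3916, stood above the other 5 antibody libraries, and without it the log2 change was -1.31 (adjusted p = 0.58). None of the 4 TIMPs passed, with log2 changes of -0.21 for Timp1 (95% interval -0.93 to 0.51), -0.46 for Timp2 (-1.31 to 0.39), -0.59 for Timp3 (-1.58 to 0.39) and -0.47 for Timp4 (-1.58 to 0.64).

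In 1 gene, Adam1a, every antibody library (48.4 to 61.9) lay below every vehicle library (67.1 to 115), against 0.258% of all genes tested, and in 0 genes was every one above, against 0.0644%. Adam1a did not pass (adjusted p = 0.831) and overlaps other genes as given above. Within the libraries with codes 25 to 30 (replicates 1, 2 and 3 of both groups) the median log2 change of the 56 genes was -0.20, and within codes 36 to 42 (replicates 4, 5 and 6) it was -0.51. At an unadjusted p under 0.05 there were 1 and 12 of the 56, and 0 passed in either. With the run of codes as a term in the fit, 6 of the 56 had an unadjusted p under 0.05 and 0 passed. For these fits too the share of all genes tested at that p was not counted. Mmp12 changed by -0.30 and -1.01, and Mmp7 by 0.09 and -2.02, within the first and the other run of codes. Whether the codes mark a technical batch is not given in the labels.

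Marker sums of antibody and vehicle libraries overlapped, at 96580 to 170100 and 60510 to 244900 for macrophages, 32890 to 107700 and 37900 to 150400 for stellate cells and fibroblasts, 39880 to 77990 and 44810 to 100300 for cholangiocytes, and 770500 to 1345000 and 333900 to 1301000 for hepatocytes. They were 1058 to 1592 and 1116 to 4146 for neutrophils, 403.4 to 1151 and 460.6 to 1190 for T cells, 2361 to 20670 and 1241 to 13520 for B cells, and 2553 to 10350 and 2469 to 13040 for endothelial cells. No marker passed, 3 of 9 hepatocyte, 1 of 8 cholangiocyte and 2 of 5 B cell markers had an unadjusted p under 0.05, and their part in the changes of the protease genes was not tested.

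**Figure D4:**
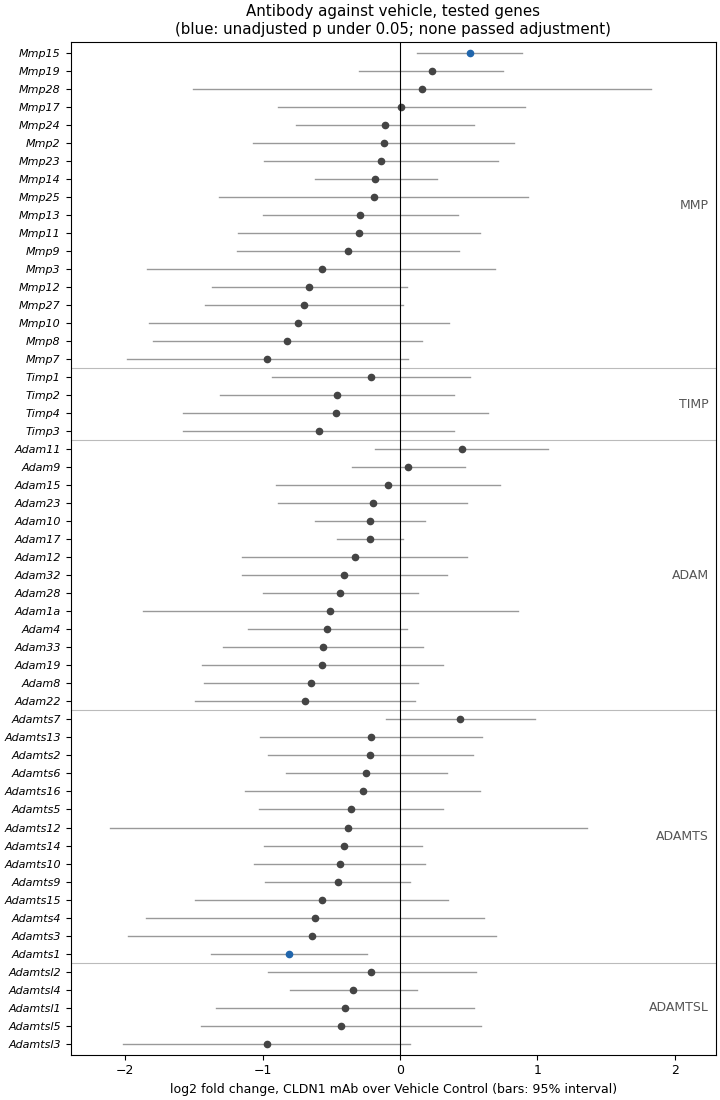
Log2 change of CLDN1 mAb over Vehicle Control for the 56 tested genes by family, with 95% intervals. Nearly all intervals cross 0, most points lie left of 0, and the 2 blue points, Mmp15 (0.51) and Adamts1 (-0.81), had an unadjusted p under 0.05.

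Genes that act on or beside these proteases were read from a list of 48, of which 42 could be tested. In vehicle against regular diet 18 were higher and 11 lower, with a median log2 change of 0.49, against 29.8% higher and 20.7% lower of all genes tested. In antibody against regular diet 16 were higher and 9 lower, against 24.8% and 14.1% of all genes tested. In antibody against vehicle 0 passed by limma, with 6 at an unadjusted p under 0.05, against 7.47% of all genes tested. The tested genes of the plasminogen system, which activates several MMP precursors, divided into 4 higher and 2 lower of 7. Plau, the urokinase gene, averaged 799.5 ± 149 in antibody, 1262 ± 488 in vehicle and 76.3 ± 29.1 in regular diet (log2 change of vehicle over regular diet 4.03; adjusted p = 3.42e-09). Plat, the tissue activator, averaged 815 ± 382, 1419 ± 721 and 30.5 ± 7.86 (5.33), and Plaur, the urokinase receptor, 546 ± 127, 805 ± 425 and 30.6 ± 8.82 (4.47). The 2 lower genes were Plg, which encodes plasminogen itself (log2 change -1.57, adjusted p = 0.000422), and Serpinf2, which encodes the plasmin inhibitor (-1.24, adjusted p = 0.00137). Both are made by hepatocytes, whose markers were lower in the same comparison, and the part of these cells was not tested. The cathepsins Ctsk and Ctss, lysosomal proteases that cut collagen and elastin, rose by 5.90 and 4.11, and Mrc2, the collagen uptake receptor, by 3.98. Of 8 tested ADAM cofactors, which carry ADAM10 or ADAM17 to the cell surface, 4 were higher and 1 lower.

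Of 7 tested genes of MMP inhibition and induction other than TIMPs, 1 was higher and 2 were lower in vehicle than in regular diet, and of 18 tested other matrix proteases and their processing enzymes 8 were higher and 6 lower. In antibody against vehicle the smallest p-values of the whole list belonged to Pcsk6 (log2 change 0.55), Furin (0.46) and Dpp4 (0.56), each with an adjusted p of 0.659 by limma. Pcsk6 and Furin encode proprotein convertases, which remove the propeptides of membrane-type MMPs and of most ADAM and ADAMTS proteases. Furin averaged 7272 ± 1295 in antibody, 5378 ± 1476 in vehicle and 10200 ± 1412 in regular diet livers, and Pcsk6 3907 ± 842, 2672 ± 633 and 5700 ± 913.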

How the data were processed

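Values were a signal for each gene in each library: normalized counts that the authors had made with cuffnorm. The submitters' processing notes name Cufflinks 2.2.1 and build mm10. How reads were aligned, which annotation, strand setting and scaling option were used is not given in the sources used here. Since these values are not raw counts, so no count model was used. Symbols were matched for 52398 of 52545 gene identifiers, and coordinates, exonic lengths, overlaps and reading frames came from GENCODE (vM21), promoter sequences from RefSeq (GRCm38.p6). The 18624 genes that reached 10 in 5 or more libraries entered the test as log2(value + 1) with limma-trend (limma 3.58.1, R 4.3.3) fitted to all 17 libraries by group alone. Tests were two-sided, p-values were adjusted by Benjamini-Hochberg over those genes, and the threshold was 0.05. The procedure was tested on simulated data with independent noise for each gene and changes in a small share of genes. In the real libraries many genes changed and genes did not vary independently, so the simulation gives no measure of errors here. Members, gene lists, tests and alternatives were chosen with earlier results of these data known.

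Genes were named with values where they passed and averaged 50 or more in the higher group (up to 30 per comparison against regular diet by smallest p), where they were lower, where they were among the 5 with the smallest p in a direction in antibody against vehicle, or were TIMPs; pathway genes were the 6 and the 3 with the smallest p. Other genes named, the cluster motif, the order per kb without 1 library and the split within library codes were chosen after their values were seen. Groups came from the sample labels. Alternatives were other pseudocounts (0.5 and 10), no filter, a stricter filter, the same total per library, quantile normalization, only the 2 groups compared, each library left out, and replicate or library code blocks. Intervals are 95% intervals.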

Additional observations from a re-analysis of the deposited data

Results flagged for a closer look

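Of 111 groups of libraries looked at (3 groups for each of 37 named genes), 6 held 1 library far from the rest of its group, beyond the 95% critical value of Dixon's test for its size. Chance alone flags about 1 in 20 groups. Mmp7 was at 3916 normalized counts in antibody replicate 1, against 575 to 1290.1 in the other 5. Adam32 was at 157.5 in the same library, against 30.9 to 63.8. The other 4 were all regular diet replicate 1, the library with the highest deposited total: Mmp11 was at 169.6 against 56.03 to 63 in the other 4, Mmp23 at 157.2 against 32.4 to 61.9, Adam9 at 2319 against 5042 to 5495, and Adam19 at 27.02 against 88.6 to 110.3. Without regular diet replicate 1 the log2 change of vehicle over regular diet was 2.02 for Mmp11, 3.41 for Mmp23, -0.90 for Adam9 and 1.84 for Adam19, and all 4 passed.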

How the results depend on the processing

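The members higher in vehicle against regular diet numbered 40 to 49 under the alternatives on the same filter, and 38 of the 49 called kept their call under every alternative in which they were tested. In antibody against regular diet 29 of 40 did. How many of all genes called kept their call was not counted, so these numbers cannot be read as particular to the members. The members lower fell to 1 in place of 3, in both comparisons, with the same total per library and with the same total without the 50 highest genes (an alternative chosen after seeing the data), and when a library was left out they ranged from 1 to 4 in antibody against regular diet. In antibody against vehicle 0 of the members tested passed under any alternative, with 2 to 17 at an unadjusted p under 0.05 when a library was left out, the 17 without vehicle replicate 1. The share of all genes tested at that p was not counted there. Adam9 turned to -0.13 with the same total, -0.00 with quantile normalization, -0.05 without the 50 highest genes and -0.10 within codes 25 to 30, a split chosen after seeing the data. Within those codes Mmp19 turned to -0.03, Mmp7 to 0.09, Timp1 to 0.12 and Timp4 to 0.39. Timp4 in antibody against regular diet, not called in the values as deposited, turned to -0.25 with quantile normalization and passed as higher under 3 other alternatives. The cause was not tested.

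Same-numbered libraries of vehicle and regular diet correlated at -0.34 to 0.02 in their deviations from the group means, of antibody and vehicle at -0.20 to 0.66, and of antibody and regular diet at -0.05 to 0.59, so the numbers were not taken as pairs. With the number as a replicate block, 42 members passed in vehicle against regular diet (40 higher and 2 lower), 41 in antibody against regular diet (37 and 4) and 0 in antibody against vehicle. Low genes, exon overlaps without strand, and 5 or 6 libraries per group limit the precision.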
